A study of Mus musculus with 2 samples.

Results

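Genes that make, carry or restrain Wnt signals were followed through 2 single-cell RNA libraries of mouse bone marrow niche cells. The 10 genes were chosen by symbol from the 27999 genes of the count matrix, with earlier results of these data known. All 10 were found. They are the ligands Wnt4 and Wnt5a, the amplifier Rspo3, the Wnt carrier Wls, and the secreted antagonists and modulators Sfrp1, Sfrp2, Sfrp4, Wif1, Dkk2 and Dkk3.

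Wnt proteins are lipid-tagged in the endoplasmic reticulum by the acyltransferase Porcn and brought to the cell surface by the transmembrane carrier Wls. Outside the cell they bind Frizzled receptors with the co-receptors Lrp5 and Lrp6, which stabilises beta-catenin inside, or act through Ror and Ryk receptors without it. Secreted Frizzled-related proteins (Sfrp) and Wif1 bind Wnt proteins outside the cell, Dkk proteins act at the Lrp co-receptors, with the role of Dkk3 less settled, and R-spondins (Rspo) keep Frizzled receptors on the surface by removing the ubiquitin ligases Znrf3 and Rnf43. In bone, Wnt signals are known for driving osteoblast formation, and their secreted antagonists for limiting it.

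Both libraries came from LepR-Cre;LSL-tdTomato mice of strain C57Bl/6JCrl aged 3 to 4 months, in which cells that express Cre from the leptin receptor gene, and all descendants of such cells, carry tdTomato. The group LepR_tdT is labelled as LepR-Cre;tdTomato+ cells of the marrow and the group EC as marrow endothelial cells, with 1 library each. The protocol texts number samples in overlapping ranges, so it is not clear which stain, gate or tamoxifen step these libraries received, and neither the number nor the sex of the mice is given. Each group is a single library, so nothing could be checked against replicates: no test was run, and every interval covers counting error only. Population and library preparation cannot be told apart in any comparison between the libraries.

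UMIs, each a counted RNA molecule, were summed over the cells of a class and given per 1000000 UMIs of that class (CPM), with exact Poisson 95% intervals. These levels are not scaled by transcript length and are set against each other between classes, not between genes. The study aimed at 2000 to 3000 cells a sample, and the cell table holds more. Cells of the LepR_tdT library had a median of 4347 UMIs in 4250 cells, and cells of the EC library 3084.5 UMIs in 4536 cells. Clusters, made without the members or any other Wnt gene, were named "like" a cell type from markers. The LepR_tdT library held 2934 stromal-like cells with 15 of 16 stromal markers raised, Lepr and Cxcl12 among them, 262 osteolineage-like cells led by Bmp3, Postn and Bglap, and 61 endothelial-like cells. The EC library held 3713 endothelial-like cells with all 10 endothelial markers raised, of which 241 were arterial-like and 3472 sinusoidal-like. Stromal markers summed to 63172 CPM in stromal-like and 2393 CPM in endothelial-like cells, and endothelial markers to 75.3 and 8698 CPM. Lepr (667 CPM against 16.9 CPM) and Cdh5 (1.22 CPM against 838 CPM) went with the labels. Both are among the markers that named these classes, so neither they nor the marker sums check the labels independently. The libraries shared 42 cell barcodes. Leaving them out changed no call of a member between stromal-like and endothelial-like cells or between whole libraries. The same held between osteolineage-like and stromal-like cells, between arterial-like and sinusoidal-like cells, and across stromal-like sub-clusters. The other values below were not recomputed without them.

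The sequences shown belong to the members at the ends of the range seen here: Wif1, which had no UMI in the EC cells, and Wls, which was found in every larger class. Both are promoter stretches from RefSeq on GRCm38.p6, plus strand, ending at or before the first annotated transcript start. Of the 10 members, 5 are in that promoter table. Capitals mark the GC box (GGGCGG) and the TATA motif (TATAAA) on either strand.
Wif1, chr10:121033754-121033959: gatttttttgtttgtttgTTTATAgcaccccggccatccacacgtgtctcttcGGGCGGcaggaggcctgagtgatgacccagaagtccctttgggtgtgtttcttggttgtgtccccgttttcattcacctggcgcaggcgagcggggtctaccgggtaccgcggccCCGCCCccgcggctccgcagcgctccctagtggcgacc
Wls, chr3:159839400-159839649: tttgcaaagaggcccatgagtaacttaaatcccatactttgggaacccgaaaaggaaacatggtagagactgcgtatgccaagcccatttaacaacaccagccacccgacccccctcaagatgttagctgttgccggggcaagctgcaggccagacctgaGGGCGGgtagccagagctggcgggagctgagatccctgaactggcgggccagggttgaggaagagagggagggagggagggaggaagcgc
The 250 bases before the RefSeq start hold 2 GC boxes and 1 TATA motif for Wif1, and 1 GC box and no TATA motif for Wls. Of 32851 promoter windows of the same length, 32.7% hold a GC box and 12.4% a TATA motif. The TCF/LEF motif CTTTGA, found in 13.8% of windows, and the RUNX motif TGTGGT, found in 14.0%, occur on neither strand in the windows of Wif1, Wls, Sfrp2, Dkk2 or Wnt4, which says only that these letters are not in those bases.

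By GENCODE M21 on GRCm38, all 10 are protein-coding genes. Sfrp1 lies on chromosome 8 (23411502 to 23449632, plus strand), Sfrp4 on chromosome 13 (19623104 to 19632994, plus), Wif1 on chromosome 10 (121033960 to 121100650, plus) and Rspo3 also on chromosome 10 (29452416 to 29535867, minus). Wnt4 lies on chromosome 4 (137277489 to 137299726, plus), Wnt5a on chromosome 14 (28504750 to 28527448, plus) and Dkk3 on chromosome 7 (112116017 to 112159057, minus). Chromosome 3 carries Sfrp2 (83766321 to 83774316, plus), Dkk2 (132085292 to 132180304, plus) and Wls (159839672 to 159938664, plus). Sfrp2 overlaps the opposite-strand gene Gm26771, which had 28 UMIs in stromal-like cells, and Wnt5a overlaps Gm2670, which had 0. Whether the counting used the strand is not given in the sources used here.

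The secreted antagonists that could be measured, Rspo3 and both ligands were higher in the stromal-like class than in the endothelial-like class. The folds ran from 5.01 for Wnt5a to over 1000 for Sfrp1 and Sfrp4. Wif1, whose 0 endothelial-like UMIs were set to a floor of 3 UMIs, was 1223-fold higher, with an exact interval from 994-fold. Wls was found in both. A member was counted as higher at a fold of at least 2 with at least 20 UMIs in both classes together. By that rule all 9 members measured were on the stromal-like side and none on the endothelial-like side, where 21.4% and 17.8% of 12847 genes lay. The members were chosen with earlier results of these data known, so their count and median describe these genes only. The median log2 ratio of the 9 members was 5.91, against 0.10 over all genes measured. The middle member, Sfrp2, stands there at the floor of 3 UMIs, and its exact interval starts at 5.59. Dkk2 was too low to be measured, with 7 stromal-like UMIs and 1 endothelial-like UMI.

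**Figure D1:**
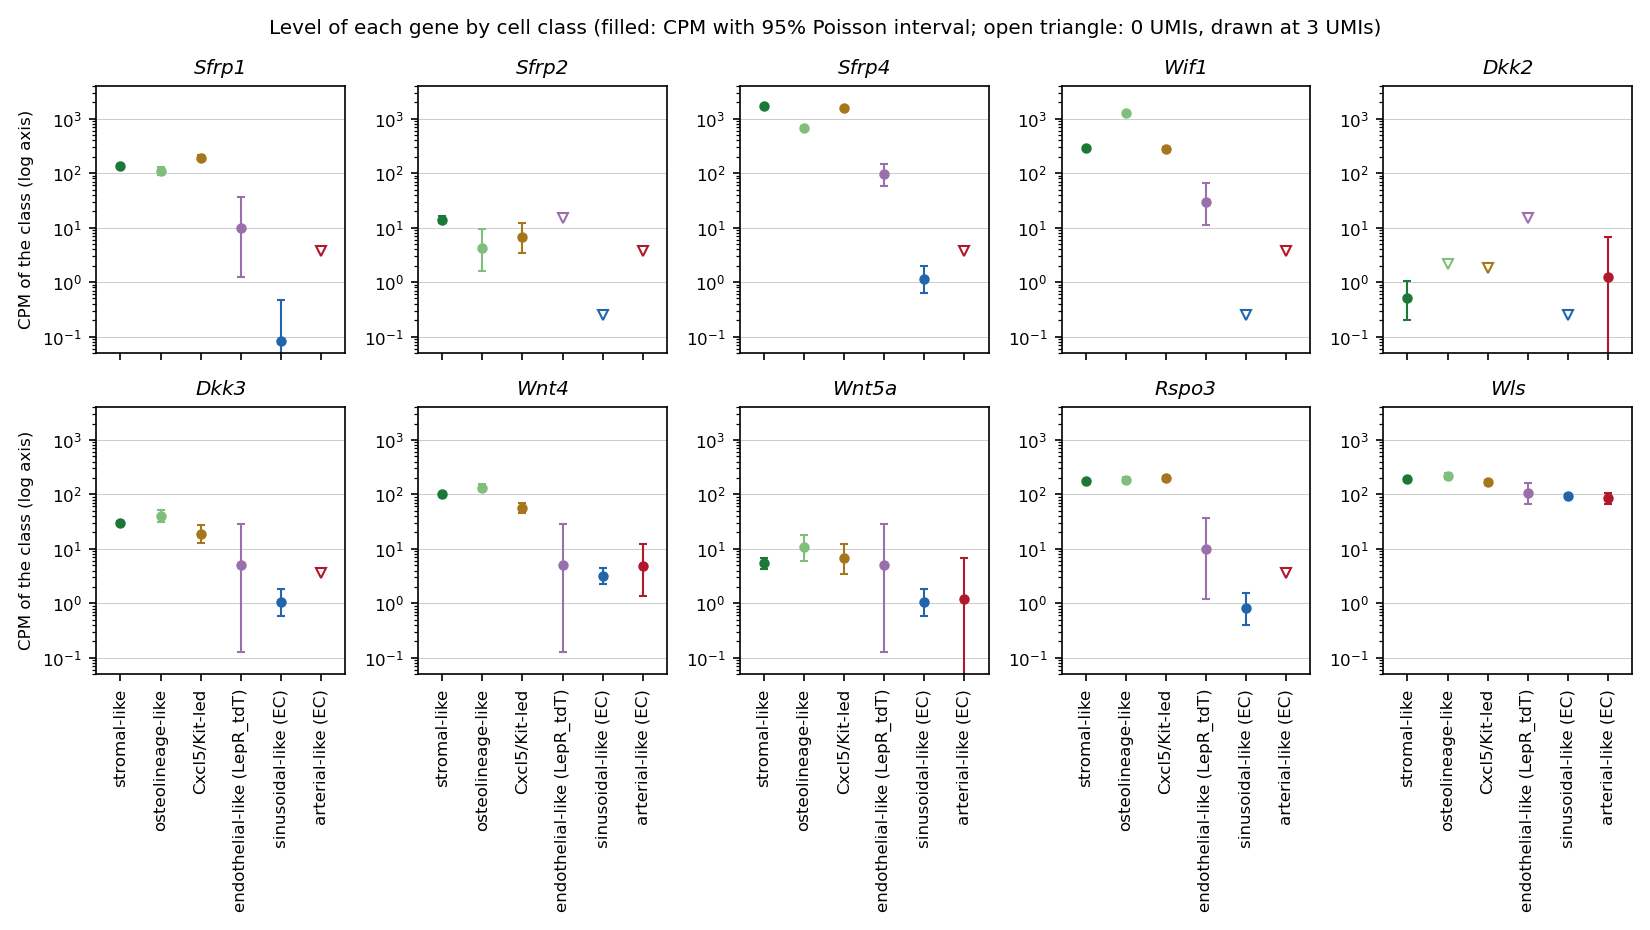
Level of each member in 6 cell classes, as CPM on a log axis. Points are sums over all cells of a class with exact Poisson 95% intervals, and open triangles mark classes with 0 UMIs, drawn at the level of 3 UMIs. Sfrp4 ran from 1692 CPM in stromal-like to 1.16 CPM in sinusoidal-like cells, while Wls stayed between 84.5 and 218 CPM.

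Among the Frizzled-related proteins, Sfrp4 counted 23622 UMIs in stromal-like cells (1692 CPM, 1671 to 1714) and only 14 UMIs on the endothelial-like side (1.09 CPM, 0.594 to 1.82). The log2 ratio was 10.60 (9.86 to 11.48). Sfrp1 counted 1928 UMIs (138 CPM, 132 to 144) against 1 UMI (0.0776 CPM, 0.00197 to 0.433), a log2 ratio of 10.80 with a wide interval of 8.32 to 16.10. Sfrp2 counted 195 UMIs (14.0 CPM, 12.1 to 16.1) against 0 UMIs. At a floor of 3 UMIs for the class that is 60.0-fold higher, and the exact interval starts at 48.3-fold. The intervals of the levels did not overlap for any of these 3 genes. The size of such ratios rests on few endothelial-like UMIs. After thinning to 1000 UMIs a cell, Sfrp1 and Sfrp2 had 0 endothelial-like UMIs each. At the floor they stood at 7.42 and 3.82 on the log2 scale. The free RNA estimate exceeded the 14 endothelial-like Sfrp4 UMIs, so subtracting it left none, and the log2 value of 12.77 is at the same floor.

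Wif1, which binds Wnt proteins through a domain unlike that of the Sfrp family, counted 3976 UMIs in stromal-like cells (285 CPM, 276 to 294) and 0 UMIs in the endothelial-like class, where the floor of 3 UMIs is 0.233 CPM. At that floor Wif1 was 1223-fold higher, a log2 value of 10.26 that thinning lowered to 8.40. The exact interval starts at 994-fold. Dkk3 counted 415 UMIs (29.7 CPM, 26.9 to 32.7) against 13 UMIs (1.009 CPM, 0.537 to 1.73), a log2 ratio of 4.88 (4.09 to 5.80). Rspo3, the R-spondin that binds Lgr4 and Lgr5, counted 2436 UMIs (174 CPM, 168 to 182) against 10 UMIs (0.776 CPM, 0.372 to 1.43), a log2 ratio of 7.81 (6.93 to 8.87). For each of these the stromal-like interval lay wholly above the endothelial-like one.

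Of the ligands, Wnt4 counted 1397 UMIs in stromal-like cells (100.1 CPM, 94.9 to 105) against 43 UMIs (3.34 CPM, 2.42 to 4.496), a log2 ratio of 4.91 (4.47 to 5.38). Wnt5a, a ligand best known for signalling through Ror receptors, counted 76 UMIs (5.44 CPM, 4.29 to 6.81) against 14 UMIs (1.09 CPM, 0.594 to 1.82), a log2 ratio of 2.32 (1.49 to 3.26). The ligand levels again did not overlap between the classes.

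Wls differed least between the populations. It counted 2719 UMIs in stromal-like cells (195 CPM, 188 to 202) against 1215 UMIs (94.3 CPM, 89.1 to 99.8). The log2 ratio of 1.05 (0.95 to 1.14) lies just past the 2-fold line, and its interval crosses that line. With TMM or median-ratio scaling of the class sums it became 0.96, below the line, so that 8 of 9 members were counted as higher. Over all cells of each library, with no cell classes, the members counted as higher were again 9 of 9 and none was lower, where 21.2% and 17.9% of 13456 genes were, and Wls stood at 190 CPM against 90.6 CPM.

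Free RNA is the background against which the low values are read. Barcodes with 1 to 50 UMIs in the LepR_tdT library held Sfrp4 at 1181 CPM, Wif1 at 229 CPM, Wls at 124 CPM and Wnt4 at 45.6 CPM. The 24 granulocyte-like cells of that library, which should lack stromal genes, showed Sfrp4 at 207 CPM, Wif1 at 46.5 CPM and Rspo3 at 53.6 CPM. In the 61 endothelial-like cells of the same library Sfrp4 stood at 95.6 CPM, Wif1 at 30.2 CPM and Rspo3 at 10.1 CPM, none of them above the granulocyte-like cells, so they are not read as expression. Intervals overlapped for Wif1 (11.1 to 65.7 against 24.7 to 79.5) and Rspo3 (1.22 to 36.3 against 30.0 to 88.4), but not for Sfrp4. The part of free RNA in these values was not tested. In the EC library, endothelial-like cells held Wls at 94.3 CPM. Its level there was 58.4 CPM (38.5 to 84.9) for the granulocyte-like class, 13.3 CPM (3.63 to 34.1) for the erythroid-like class and 66.0 CPM for free RNA. Within the LepR_tdT library the endothelial-like Wls value was 106 CPM (65.4 to 161). That interval overlapped those of its granulocyte-like class, at 96.5 CPM (63.6 to 140), and its erythroid-like class, at 44.6 CPM (9.20 to 130). The erythroid-like value rests on 3 UMIs in 1 of 19 cells. The endothelial-like value also lay below the 124 CPM of that library's free RNA, so it does not stand apart from these values. Whether Wls in the granulocyte-like and erythroid-like cells is itself expression was not tested. What part of the Wls signal in endothelial-like cells is free RNA was not tested beyond these values.

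Within the LepR_tdT library, where both classes shared 1 preparation, 6 of 9 members measured were higher in stromal-like than in its own endothelial-like cells, none lower and 3 neither. Of 11678 genes, 17.2% were higher and 14.6% lower by the same rule. The ratios were smaller than across libraries, with log2 values of 4.15 (3.50 to 4.88) for Sfrp4, 3.24 (2.11 to 4.69) for Wif1 and 4.12 (2.26 to 7.16) for Rspo3. The endothelial-like side of these ratios held 1 UMI each for Dkk3, Wnt4 and Wnt5a, 2 each for Sfrp1 and Rspo3, and 0 for Sfrp2, and the interval of Dkk3 (0.08 to 7.87), counted as higher, crosses 2-fold. Sfrp2 could only be neither here, because 3 UMIs in the endothelial-like class are 15.1 CPM, above its 14.0 CPM in stromal-like cells. Wls gave 0.88 (0.27 to 1.58).

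**Figure D2:**
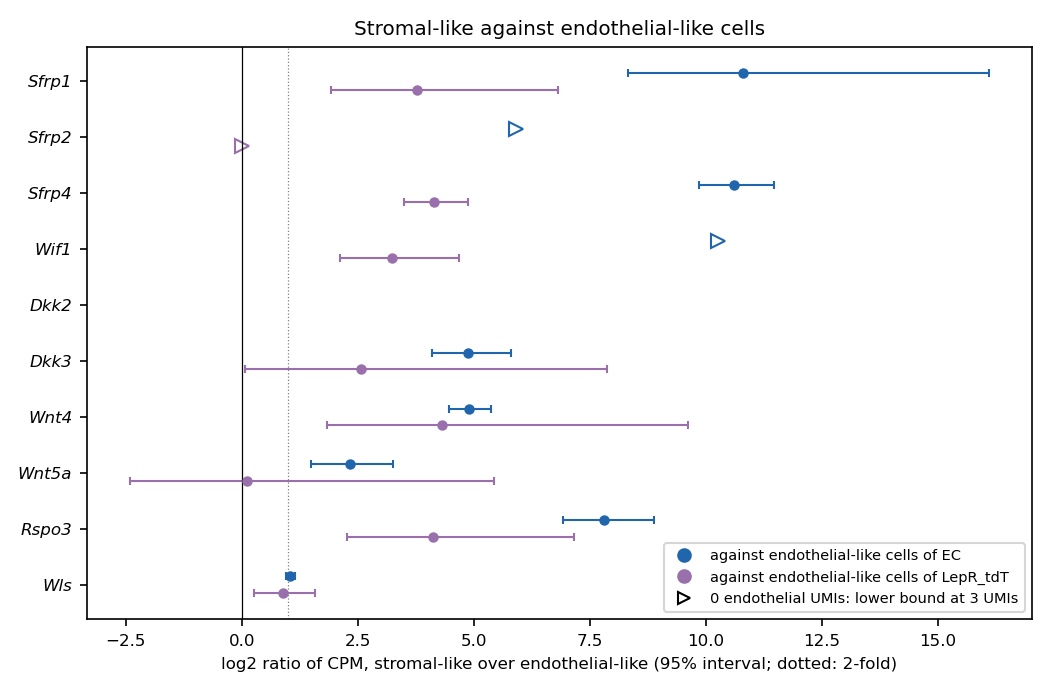
Log2 ratio of CPM, stromal-like over endothelial-like cells, for each member measured, against the endothelial-like cells of the EC library and of the LepR_tdT library, with conditional exact binomial 95% intervals. Open triangles have 0 endothelial-like UMIs, set to a floor of 3 UMIs, and the dotted line marks 2-fold. Against the EC cells only the interval of Wls, at 1.05, crosses 2-fold. Against the LepR_tdT endothelial-like cells Sfrp2 is held at 0, since the floor of that class lies above the stromal-like level. Its difference there is not resolved.

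Cell by cell, after every cell was thinned to 1000 UMIs, Sfrp4 was seen in 70.6% of 2915 stromal-like cells (exact interval 68.9 to 72.2) and, before thinning, in 94.1% of 2934. Wif1 was seen in 21.2% (19.7 to 22.7), Wls in 18.5% (17.1 to 19.9), Rspo3 in 15.0% (13.7 to 16.3), Sfrp1 in 12.6% (11.4 to 13.9) and Wnt4 in 9.06% (8.04 to 10.2). In 23 granulocyte-like cells of the same library Sfrp4 was seen in 17.4% (4.95 to 38.8), with medians of 9280 UMIs there and 4621.5 UMIs for stromal-like cells before thinning. In the EC library, Wls was seen in 9.13% (8.22 to 10.1) of 3624 endothelial-like cells, Wnt4 in 0.414% and Sfrp4 in 0.166%, while Wif1, Sfrp1 and Sfrp2 were seen in 0 cells, where the exact interval reaches 0.102%. The share of EC granulocyte-like cells with a Wls UMI, 7.32% (1.54 to 19.9), overlapped that of the endothelial-like cells.

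Osteolineage-like cells, which carry bone matrix genes, differed from stromal-like cells of the same library mainly in Wif1 and Sfrp4. Of 9 members measured, Wif1 was higher, Sfrp4 and Sfrp2 were lower, and 6 were neither, where 5.62% of 11769 genes were higher and 8.49% lower. Wif1 counted 1768 UMIs in osteolineage-like cells (1261 CPM, 1203 to 1321) where the stromal-like level was 285 CPM, a log2 ratio of 2.15 (2.07 to 2.23). Sfrp4 counted 961 UMIs (686 CPM, 643 to 730) against 1692 CPM, a log2 ratio of -1.30 (-1.40 to -1.21). Sfrp2 rested on 6 UMIs (4.28 CPM) against 14.0 CPM, a log2 ratio of -1.71 (-3.17 to -0.56). At a clustering resolution of 1.0 neither of the 2 lower members passed, with log2 ratios of -0.86 for Sfrp4 and -0.37 for Sfrp2, while Wif1 stayed higher at 2.00.

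The other members lay nearer to the stromal-like level. Wnt5a counted 15 UMIs (10.7 CPM, 5.99 to 17.6) against 5.44 CPM, a log2 ratio of 0.97 (0.07 to 1.79), just under the 2-fold line. Dkk3 stood at 40.7 CPM against 29.7 CPM, Wnt4 at 132 against 100.1 CPM, Wls at 218 against 195 CPM, Rspo3 at 182 against 174 CPM, and Sfrp1 at 111 against 138 CPM. The thinned share of cells with a Wif1 UMI was 53.5% of 258 osteolineage-like cells (47.2 to 59.7), and that with a Sfrp4 UMI was 35.7% (29.8 to 41.8). These shares moved the same way as the levels. Haemoglobin RNA summed to 4009 UMIs in osteolineage-like cells, of which 3745 lay in 1 cell, and the median cell had 0. Mitochondrial genes took a median of 3.07% of UMIs in osteolineage-like and 2.17% in stromal-like cells, and the part of this in the ratios was not tested.

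The osteolineage-like class was not uniform in the members. Clustered again on its own, it gave 105 cells led by the bone genes Ifitm5 and Dmp1, 104 cells led by Chl1 and Ptx3 in which all 10 adipo-primed stromal markers were raised, and 53 cells led by Igfbp6, Ly6a and Clec3b in which 2 of 12 osteo-primed markers were raised. Raised here means above the other osteolineage-like cells by any amount, not above stromal-like cells. These sub-clusters stay unnamed, and this split was chosen with the first clusters in view. Wif1 stood at 1362 CPM (1269 to 1461) in the Ifitm5 and Dmp1-led cells, 1702 CPM (1596 to 1814) in the Chl1 and Ptx3-led cells and 110 CPM (73.5 to 158) in the Igfbp6 and Ly6a-led cells. The highest level was 15.5-fold (10.7 to 23.3) the lowest, and the Igfbp6 and Ly6a-led cells lay below stromal-like cells.

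Sfrp4 was highest where Wif1 was lowest, and both were higher in the Chl1 and Ptx3-led than in the Ifitm5 and Dmp1-led cells. Sfrp4 stood at 275 CPM (234 to 321) in the Ifitm5 and Dmp1-led, 565 CPM (504 to 631) in the Chl1 and Ptx3-led and 1844 CPM (1684 to 2015) in the Igfbp6 and Ly6a-led cells, a range of 6.71-fold (5.60 to 8.07). Dkk3 followed the same order, at 6.87, 41.4 and 114 CPM, on 4, 23 and 30 UMIs. Wnt5a had 2, 6 and 7 UMIs in these cells, too few to order. Wnt4 had its highest level, 172 CPM (140 to 209), in the Ifitm5 and Dmp1-led cells, with 121 CPM (93.4 to 153) and 68.1 CPM (40.4 to 108) in the others.

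Sfrp1 and Rspo3 were lowest in the Ifitm5 and Dmp1-led cells. Sfrp1 stood there at 30.9 CPM (18.3 to 48.9), against 182 CPM (148 to 221) in the Chl1 and Ptx3-led and 136 CPM (95.5 to 189) in the Igfbp6 and Ly6a-led cells. Rspo3 stood at 91.1 CPM (68.2 to 119), 250.1 CPM (210 to 295) and 238 CPM (183 to 305) in the same order, and Wls at 172, 277 and 197 CPM. Between the Ifitm5 and Dmp1-led and the Chl1 and Ptx3-led cells, 4 of 7 members measured were lower in the first (Sfrp1, Sfrp4, Dkk3 and Rspo3) and none higher, where 9.37% and 3.56% of 6214 genes were. Between the Igfbp6 and Ly6a-led and the Chl1 and Ptx3-led cells, 2 of 7 were higher in the first (Sfrp4 and Dkk3) and 1 lower (Wif1), where 5.45% and 9.02% of 5355 genes were. Leaving out the Ifitm5 and Dmp1-led cells moved the log2 ratio of Sfrp4 to stromal-like cells to -0.79, below the 2-fold line, and those of Dkk3 and Wnt5a to 1.12 and 1.54, above it.

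**Figure D3:**
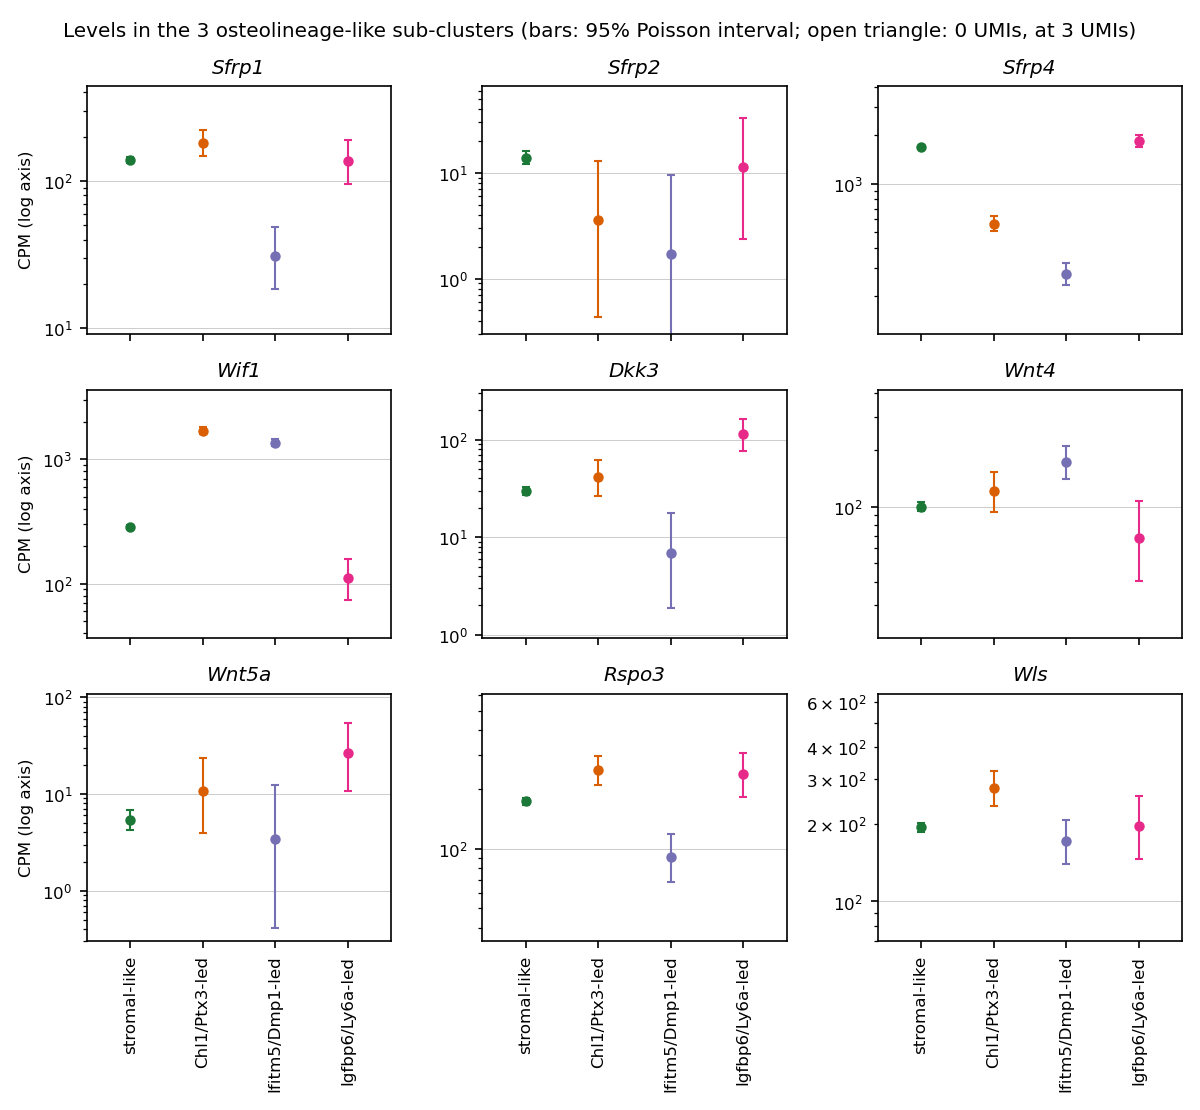
Level of 9 members (Dkk2 had 0 UMIs in osteolineage-like cells) in stromal-like cells and in the 3 osteolineage-like sub-clusters, as CPM on log axes with exact Poisson 95% intervals. Wif1 falls from 1702 to 110 CPM where Sfrp4 rises from 565 to 1844 CPM.

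Stromal-like cells varied less. In 5 sub-clusters of at least 50 cells, the highest level was 1.15-fold (1.015 to 1.31) the lowest for Wls, 1.33-fold (1.07 to 1.66) for Wnt4, 1.44-fold (1.37 to 1.51) for Sfrp4, 1.67-fold (1.45 to 1.92) for Rspo3, 1.71-fold (1.47 to 2.01) for Sfrp1 and 1.95-fold (1.75 to 2.16) for Wif1. Dkk3 (3.05-fold, 2.11 to 4.51), Wnt5a (3.39-fold, 1.34 to 10.97) and Sfrp2 (2.39-fold, 1.38 to 4.45) were the 3 past 2-fold. Of these 5 sub-clusters, Wif1, Dkk3, Rspo3, Sfrp4 and Wls were highest in the same one, 561 cells, led by Kit, Penk and Comp. All 12 osteo-primed markers were raised in it, by any amount, over the other stromal-like cells. There Wif1 stood at 437 CPM (414 to 461), Dkk3 at 50.4 CPM (42.8 to 59.0), Rspo3 at 222 CPM (205 to 239) and Sfrp4 at 2072 CPM (2021 to 2123). At a resolution of 1.0, with 11 smaller sub-clusters, 8 members passed 2-fold, and Wls, at 1.28-fold, did not.

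Ordering stromal-like cells by their osteo-primed markers, which the members are not among, gave a graded picture. In 5 groups of 586 or 587 cells, from the lowest to the highest score, Wif1 stood at 183, 225, 214, 313 and 459 CPM. Sfrp1 stood at 94.5, 106, 127, 153 and 199 CPM. Intervals of neighbouring groups overlapped except for the last pair, and those of the lowest (82.8 to 107) and highest (183 to 215) lay apart. Wnt4 stood at 81.2 CPM (70.4 to 93.2) in the lowest and 106 CPM (94.7 to 118) in the highest group. Rspo3 went from 142 CPM (128 to 158) to 238 CPM (221 to 256), Dkk3 from 26.5 CPM (20.5 to 33.8) to 48.1 CPM (40.6 to 56.5) and Sfrp2 from 8.44 CPM (5.23 to 12.9) to 19.6 CPM (15.0 to 25.2). In the lowest and highest groups Wls stood at 198 and 205 CPM and Sfrp4 at 1688 and 1609 CPM. The median depth also rose, from 4188 to 4960 UMIs.

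Along the adipo-primed markers, Wif1 stood at 432, 310, 278, 253 and 185 CPM from the lowest to the highest group, and Sfrp4 at 1430, 1563, 1650, 1798 and 1951 CPM. Sfrp1 went from 160 CPM (145 to 178) to 112 CPM (100.3 to 125) and Rspo3 from 215 CPM (197 to 235) to 154 CPM (140 to 169). Wnt4 stayed between 92.5 and 108 CPM and Wls between 185 and 203 CPM. The median depth of these groups went from 3886 to 4928 UMIs, and its part in the order was not tested.

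**Figure D4:**
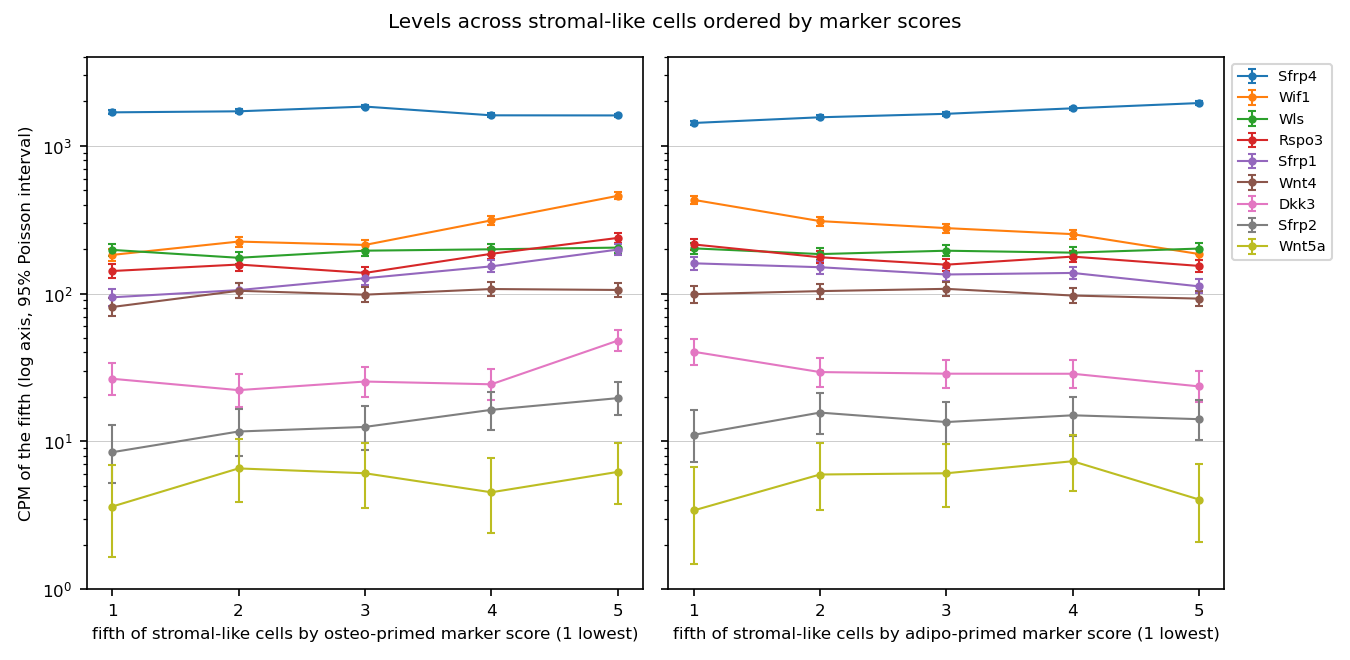
Level of 9 members, as CPM on a log axis with exact Poisson 95% intervals, in 5 groups of stromal-like cells ordered by the mean level of osteo-primed (left) and adipo-primed (right) markers. Wif1 goes from 183 to 459 CPM along the first order and from 432 to 185 CPM along the second, and Wls is nearly flat in both.

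Single stromal-like cells held few members each at this depth. After thinning, 12.1% of 2915 cells had none of the 10 members, 41.8% had 1, 31.3% had 2 and the most in any cell was 5. Over the 45 pairs of members, Pearson correlations of log values across these cells, which share 1 library, ran from -0.053 to 0.048. Without thinning they ran from -0.048 to 0.131, the highest for Sfrp1 and Wif1. In counts this sparse such values are no finding in either direction. Sfrp1 and Wif1 were seen together in 94 cells, with Wif1 in 25.5% of cells with Sfrp1 and in 20.5% of cells without it, and without thinning in 64.9% and 52.2%.

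The Cxcl5 and Kit-led cluster of 279 LepR_tdT cells, which stayed unnamed, was within 2-fold of stromal-like cells in most members. Of 9 measured, none was higher and 1 lower, where 3.81% and 6.8% of 11745 genes were. The lower one was Sfrp2, on 11 UMIs, at 6.78 CPM against 14.0 CPM (log2 ratio -1.04, -2.07 to -0.17). Sfrp1 stood at 193 CPM (172 to 216) against 138 CPM and Wnt4 at 57.3 CPM (46.3 to 70.2) against 100.1 CPM, neither of them past 2-fold. After thinning, a Wnt4 UMI was seen in 6 of 273 cells, 2.20% (0.811 to 4.72), against 9.06% (8.04 to 10.2) of stromal-like cells. That gap is wider than that of the levels. Before thinning the shares were 24.0% of 279 cells and 32.4% of 2934 stromal-like cells, a narrower gap than that of the levels.

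By share of the library's UMIs, stromal-like cells held 63.1% of Wif1, 78.2% of Sfrp1, 78.6% of Rspo3, 81.5% of Wnt4 and 85.4% of Sfrp4, and 77.0% of UMIs of all genes in LepR_tdT cells. Osteolineage-like cells held 28.0% of Wif1 and 3.48% of Sfrp4, with 7.73% of all UMIs. In the 17 pericyte-like cells Wls counted 12 UMIs (171 CPM, 88.3 to 299), Sfrp4 4, Wif1 1 and the other members 0, which with so few cells allows up to 52.6 CPM each.

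Between vessel types, only Wls and Wnt4 could be measured. Wls stood at 84.5 CPM (65.7 to 107) on 69 UMIs in arterial-like and 94.99 CPM (89.6 to 101) on 1146 UMIs in sinusoidal-like cells, a log2 ratio of -0.17 (-0.54 to 0.18). Wnt4 stood at 4.90 CPM (1.33 to 12.5) on 4 UMIs and 3.23 CPM (2.299 to 4.42) on 39 UMIs, a log2 ratio of 0.60 (-1.35 to 2.07). None of these 2 members passed 2-fold in either direction, where 9.28% of 11107 genes were higher and 7.07% lower in arterial-like cells. At a clustering resolution of 1.0 Wnt4 passed, with a log2 ratio of 1.04. Scaling by TMM would shift all log2 ratios of this comparison by -0.15. The sinusoidal-like cells led by stress genes held Wls at 90.5 CPM and the others at 98.6 CPM. Cells with at least 3 stromal and 3 endothelial markers made up 16.2% of the arterial-like class and 7.03% of the sinusoidal-like class, and without them the log2 ratio of Wls was 0.10.

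The rest of the pathway was read from a list of 87 genes in 7 roles, each count against the 21.4% and 17.8% of all genes that were higher on the stromal-like and endothelial-like side. Of 21 other ligands 6 could be measured, 4 of them higher on the stromal-like and 1 on the endothelial-like side. Rspo2, an R-spondin like Rspo3, counted 864 UMIs (61.9 CPM) against 3 UMIs (0.233 CPM), a log2 ratio of 8.05 (6.50 to 10.33). Wnt6 (97 UMIs), Rspo4 (27 UMIs) and Wnt9a (34 UMIs against 11) were also higher. Wnt2, with 37 endothelial-like and 0 stromal-like UMIs, was the ligand higher in endothelial-like cells, 13.4-fold at the floor of 3 UMIs. Wnt5b (10.5 against 16.7 CPM) was neither.

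Of 5 other genes measured that the list places among secreted modulators, 4 were higher in stromal-like cells and none lower. Wisp2, a matricellular protein of the CCN family, stood at 718 CPM on 10030 UMIs against 1.09 CPM on 14 UMIs, a log2 ratio of 9.37 (8.62 to 10.24), and Igfbp4 at 7446 against 2133 CPM. Tfpi2, a modulator by its place in the list only, was level, at 44.6 and 44.4 CPM. Porcn, the enzyme that lipidates Wnt proteins, stood at 53.6 CPM on 748 UMIs against 4.35 CPM on 56 UMIs, a log2 ratio of 3.62 (3.23 to 4.04), so it differed more between the classes than Wls did.

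Receptors were divided between the populations. Of 13 measured, 9 leaned at least 2-fold to the stromal-like side, 2 to the endothelial-like side and 2 neither. Fzd9 (54.7 against 0.0776 CPM), Fzd5 (66.8 against 4.81 CPM), Fzd1 (68.2 against 8.31 CPM) and Ror2 (9.96 against 0.155 CPM) were among the stromal ones. Fzd4, which also serves as the receptor of norrin, stood at 17.5 against 169 CPM, with a log2 ratio of -3.27 (-3.47 to -3.08). Fzd6 counted 1 UMI against 334 UMIs, a log2 ratio of -8.50 (-13.81 to -6.01).

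Of 9 co-receptors and turnover genes measured, 4 were higher in stromal-like cells, among them the R-spondin receptors Lgr4 (24.3 against 2.48 CPM) and Lgr5 (9.89 against 0.699 CPM). Lrp5 was the 1 higher in endothelial-like cells, at 13.3 against 67.4 CPM (log2 ratio -2.35, -2.58 to -2.12), and its partner Lrp6 was neither, at 42.3 against 63.1 CPM. Of 16 intracellular genes measured, 2 leaned to the stromal-like side, 3 to the endothelial-like side and 11 were neither, shares near those of all genes. Ctnnb1, which encodes beta-catenin, had 130 CPM against 275 CPM, and the interval of its log2 ratio of -1.08 (-1.16 to -0.99) crosses 2-fold.

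Genes often used as targets of Wnt signalling did not go one way. Of 8 measured, 5 were on the stromal-like and 3 on the endothelial-like side. The feedback genes Nkd1 (19.6 against 0.543 CPM), Nkd2 (30.5 against 0.776 CPM) and Axin2 (30 UMIs against 8) and the receptor Tnfrsf19 (137 against 0.155 CPM) were stromal. Ccnd1, which encodes cyclin D1, stood at 2.29 against 75.3 CPM, and Id2 and Bambi were also endothelial. Several of these genes have other regulators, and no measure here tells them apart.

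**Figure D5:**
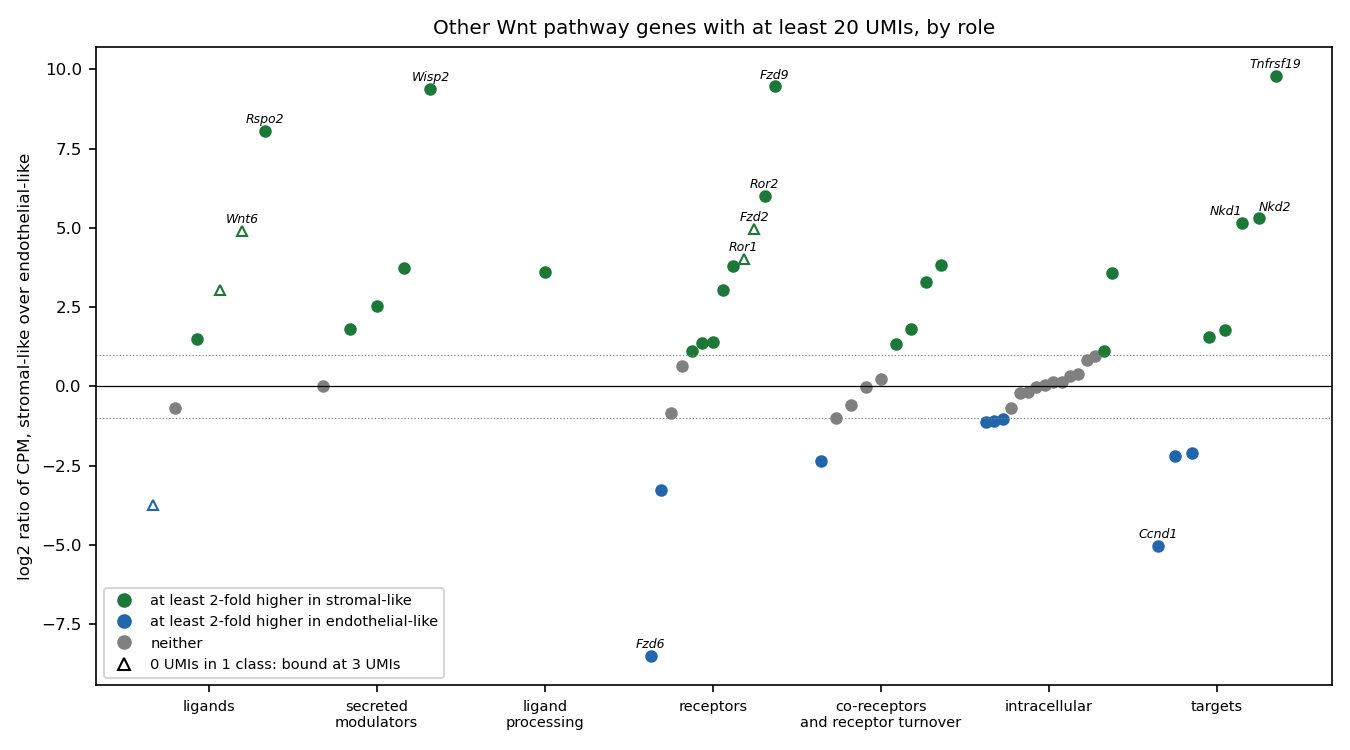
Log2 ratio of CPM, stromal-like over endothelial-like cells, for 58 other Wnt pathway genes with at least 20 UMIs, by role. Green points are at least 2-fold higher in stromal-like, blue points at least 2-fold higher in endothelial-like cells, grey points neither, and open triangles are bounds at 3 UMIs. Ligands, receptors and targets reach both sides past 2-fold, modulators only the stromal-like side, and 11 of 16 intracellular genes lie within 2-fold.

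Between osteolineage-like and stromal-like cells 1 of 12 receptors measured (Fzd9, 12.1 against 54.7 CPM) was lower and none higher, near the 8.49% and 5.62% of all genes. Other genes listed as secreted modulators were split, 2 higher, 1 lower and 3 neither of 6. Wisp1 had 109 CPM against 9.31 CPM (log2 ratio 3.55, 3.20 to 3.90), while Tfpi2 was lower at 14.3 against 44.6 CPM. Cthrc1, named after its values were seen, counted 26 UMIs against 1. Of 8 targets 3 were higher and none lower, with Ccnd1 at 52.8 against 2.29 CPM (log2 ratio 4.53, 3.91 to 5.17). Ctnnb1 was the 1 of 16 intracellular genes that was higher, at 443 against 130 CPM (log2 ratio 1.77, 1.63 to 1.90), and Rspo2 was among the ligands that were lower, at 20.0 against 61.9 CPM.

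The genes whose levels ran most like a member's across 10 clusters of at least 50 cells, 4 in LepR_tdT and 6 in EC, were ranked by Pearson correlation of log2(CPM + 1), among genes reaching 50 CPM in a cluster, as a description. For Wif1 these were Dcn (0.999), Srpx2 (0.998) and 1500015O10Rik (0.997), and for Sfrp4 C4b (0.997), Aldh3a1 (0.995) and G0s2 (0.995). Sfrp1 was nearest to Ltbp2 (0.999) and Bmp5 (0.999), Rspo3 to Adamts2 (0.998) and Sema5a (0.998), Wnt4 to Pltp (0.991) and Shisa4 (0.990), and Dkk3 to Tpm2 (0.997) and Hpgd (0.994). Wnt5a was nearest to Pdgfra (0.979) and Wls to Jkamp (0.987). The clusters of a library share its preparation and fall into 2 sets by library, so values this high come easily to any gene absent from the EC library. For Dkk2, with 8 UMIs in both libraries' cells, likeness has no weight.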

How the data were processed

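The deposited matrix holds raw UMI counts per gene and barcode for both libraries, empty droplets included, and the authors' cell table gives each cell's library, UMI count and gene count. Recomputed UMI counts matched the table in all 4250 LepR_tdT and 4536 EC cells. Cell Ranger 2.1.1, Seurat 2.3.4 and mm10 are named per the submitters' processing notes, with no roles. Of 18152304 EC and 21983361 LepR_tdT UMIs, 77.7% and 82.5% lay in these cells.

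Cell counts were scaled to 10000 UMIs and log-transformed. Of the 2000 most variable genes, members, other Wnt genes, mitochondrial genes, tdTomato and genes in fewer than 10 cells were dropped, leaving 1573. These were reduced to 30 principal components, joined to 15 neighbours and clustered (Leiden, resolution 0.5, best of 20 seeds). A name needed 3 markers of a set at 1.5-fold with 10 UMIs each. It was withheld where another set led, where at least 3 of the 10 leading genes were mitochondrial, or in shallow clusters without an own leading marker. A shallow granulocyte cluster was clustered again, and stromal-like and osteolineage-like cells were split further. Both steps were added after the clusters were seen. Scrublet marked 0 EC cells and 1 LepR_tdT cell, too few to serve as a filter, so doublets were kept.

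Class sums carry exact Poisson 95% intervals, ratios conditional exact binomial intervals and shares Clopper-Pearson intervals. A class at 0 was set to 3 UMIs, summed over the class. The named genes are the 10 members, any listed pathway gene with at least 20 UMIs in stromal-like and endothelial-like cells, and the 3 genes most alike to each member, of which those printed are a part. The members and lists were chosen with earlier results of these data known. Sums with 4-fold changes were simulated with counting error only, so they say nothing of variation between cells or libraries. For stromal-like against endothelial-like cells (12848 genes), 100% of 200 changed genes were recovered and 0.791% of unchanged genes were called. For osteolineage-like against stromal-like cells (11736 genes) it was 96.0% of 200 and 4.51%. For arterial-like against sinusoidal-like cells (11117 genes) it was 95.4% of 195 and 5.98%. Alternatives covered the clustering, a marker gate per cell, depth, free RNA, doublets, mitochondrial share, scaling, minimum and fold. Work was done in Python 3.11.15 with scanpy 1.11.5, scipy 1.17.1 and leidenalg 0.10.2, and TMM and median-ratio factors came from edgeR 4.0.16. Promoter sequences are from RefSeq, positions from GENCODE M21 (27645 of 27999 identifiers found).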

Additional observations from a re-analysis of the deposited data

Results flagged for a closer look

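RNA of 4 stromal members was present in the EC library outside its cells, in barcodes with 1 to 50 UMIs that the comparisons do not use. Sfrp4 stood there at 51.7 CPM on 144 UMIs, against 1.20 CPM in the EC cells and 1181 CPM in the same kind of barcodes of the LepR_tdT library. Wif1 stood at 9.33 CPM on 26 UMIs, against 0 in the EC cells. Sfrp1 and Rspo3 stood at 5.02 CPM each on 14 UMIs, against 0.0709 and 0.780 CPM in the EC cells. These EC values were 4.07% to 6.59% of the LepR_tdT ones. The source of this RNA was not tested.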

How the results depend on the processing

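No ratio past 2-fold changed sign under any alternative that was run. Ratios below 2-fold did: in osteolineage-like over stromal-like cells the log2 ratio of Sfrp1 went from -0.32 to 0.48 at resolution 1.0, and that of Dkk3 from 0.45 to -0.32 without the Igfbp6 and Ly6a-led cells. Of stromal-like against endothelial-like cells, 8 to 10 members were higher and 0 lower under all alternatives, and over whole libraries 9 to 10. The count of members higher in osteolineage-like than in stromal-like cells, 1 (Wif1) as reported, was 2 with Wnt genes in the clustering, 2 with free RNA subtracted, 2 with TMM and 2 with median-ratio scaling, 2 at a fold of 1.5, 3 after thinning to 1000 UMIs and 3 without the Ifitm5 and Dmp1-led cells. The count of lower members, 2 as reported, was 0 at resolution 1.0 and 1 without those cells. In arterial-like against sinusoidal-like cells 1 member (Wnt4) was higher at resolution 1.0 and 1 at a fold of 1.5, against 0. At resolution 1.0, 8 members passed 2-fold across stromal-like sub-clusters, against 3. For resolution and thinning the cause was not tested. The free RNA share, estimated from haemoglobin as 7.26% for LepR_tdT and 5.86% for EC, was applied to every class of a library. For Sfrp4, Sfrp1 and Wif1 the EC share exceeded the 14, 1 and 0 UMIs counted in endothelial-like cells, so it is too high for them. Leaving out the stress-led endothelial cluster gave Wls a log2 ratio of 1.00. No paired analysis was possible because each group has 1 library and no result comes from a test. Depth limits Dkk2, Wnt5a and Sfrp2 most, on 8, 90 and 195 UMIs over both main classes.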
